A study of Caenorhabditis elegans with 16 samples.

Results

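The analog 3MB-PP1 changed transcript levels in fed larvae of the engineered cdk12-as strain of Caenorhabditis elegans by amounts that were compared, gene by gene, with its effect in fed wild-type (N2) larvae. The quantity described here is the strain-by-inhibitor interaction, the log2 fold change with inhibitor in cdk12-as minus that in wild type, so that an effect of the compound shared by both strains cancels. It was built from 8 of the 16 libraries of the study, chosen by their labels, as 2 libraries of each of 4 groups. The groups were WT with food and DMSO, WT with food and 3MB-PP1, cdk12-as with food and DMSO, and cdk12-as with food and 3MB-PP1. All larvae had hatched from bleached embryos without food at 20 °C, had been held there for at least 12 h so that they arrested at the first larval stage (L1), and then received OP50 bacteria for 4 h. The compound was used at 1 µM and dissolved in DMSO, which the groups without it received at 0.1%. Both groups of each strain share the starvation, the food and the allele. They differ in the compound and may differ in DMSO, whose final share with the compound the labels do not give. The cdk12-as allele was not tested in a second line here and whole larvae were pooled. The labels number the replicates without saying whether they were grown apart, so the p-values reflect only how far these libraries differed, which may be technical.

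CDK-12 is a cyclin-dependent kinase that, with cyclin K, phosphorylates serine 2 in the repeats of the C-terminal domain (CTD) of the largest subunit of RNA polymerase II. In an analog-sensitive kinase the ATP pocket is widened so that a bulky inhibitor, which fits the normal enzyme poorly, can block it. In mammalian cells CDK12 is known for supporting the transcription of long genes, among them genes of the DNA damage response. Many genes of C. elegans lie in operons, in which closely spaced genes on the same strand are transcribed from one promoter and the downstream messages are separated by 3′ end formation and trans-splicing to the spliced leader SL2.

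Counts assigned to genes ranged from 19646994 to 56644943 in the 8 libraries, and 26.2 to 50.7% of them fell on rrn-2.1, which encodes ribosomal RNA. Levels below are CPM, the counts scaled to a common library size, with library sizes scaled by TMM, and changes are relative to the other genes of a library, so that a change in RNA per larva cannot be seen. Replicate 1 of wild type with inhibitor stood apart from the other libraries of its strain. Its 8 body wall muscle markers summed to 4630 CPM against 6380 to 7320 CPM in the other wild-type fed libraries, and 5 pharynx markers summed to 271 CPM against 537 to 672 CPM. In the 4 fed cdk12-as libraries the sums were 7880 to 8420 and 823 to 940.0 CPM, with and without inhibitor overlapping. Of 34 tested markers of intestine, epidermis, muscle, pharynx, neurons and germ line, none was called in the interaction, and their part in the results was not tested. The pharynx and epidermis lists each held a marker near 0, and in bulk RNA fewer cells of a type and less RNA per cell cannot be told apart. The table used here holds 1376 X-linked genes, the last of which ends at position 4853035, and other X-linked genes were not analysed here.

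In the interaction the inhibitor effect in cdk12-as was lower than in wild type for 954 genes (6.02% of 15845 tested) and higher for 145 genes (0.915%), in the quasi-likelihood test of edgeR at p under 0.05 after Benjamini-Hochberg adjustment. Among genes at 5 CPM or more with a standard symbol, the extremes were the mitochondrial aspartyl-tRNA synthetase gene dars-2, with a 5.73-fold lower response, and the glutathione S-transferase gene gst-24, with a 5.25-fold higher one. The median log2 value was -0.98 among the lower genes and 0.80 among the higher ones, and 458 and 54 of them differed more than 2-fold. Without the wild-type library that stood apart, 831 genes were lower and 113 higher. The number of higher genes was 85 or 84 without replicate 1 or 2 of wild type with food and 73 without replicate 1 of cdk12-as with food. With the replicate number as a block it was 303, or 337 with a block within each strain, while 1167 or 1201 genes were lower. With libraries scaled by total counts, which moved the median of all genes from 0.04 to -0.12, 235 genes were lower and 7 higher, so that lower genes made up 97.1% of calls against 86.8%. With rrn-2.1 left out of the total counts, 1102 genes were lower and 84 higher.

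Most of the difference lay in cdk12-as larvae. Among the 954 lower genes the median log2 fold change with inhibitor was -0.93 in cdk12-as and 0.06 in wild type, and the change in cdk12-as was the larger one in size for 951 of them. Among the 145 higher genes the medians were 0.75 and -0.01, and cdk12-as had the larger change for 136. The other 9 had a median level of 1.61 CPM. Tested alone, the inhibitor lowered 1326 genes (8.37%) and raised 598 (3.77%) in fed cdk12-as. With a replicate block 1097 genes were raised, or 1165 with the block within strain, and 284, 357 and 318 without replicate 1 or 2 of cdk12-as with food or replicate 1 with inhibitor. In fed wild type edgeR called 0 genes either way (0%, smallest adjusted p = 0.708), and 305 genes had an unadjusted p under 0.05. DESeq2 called 3 genes lower and 0 higher there, the antimicrobial peptide genes cnc-6 (-0.80) and cnc-11 (-1.18) and K08F8.5 (-2.48), which are named because so few were called.

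**Figure D1:**
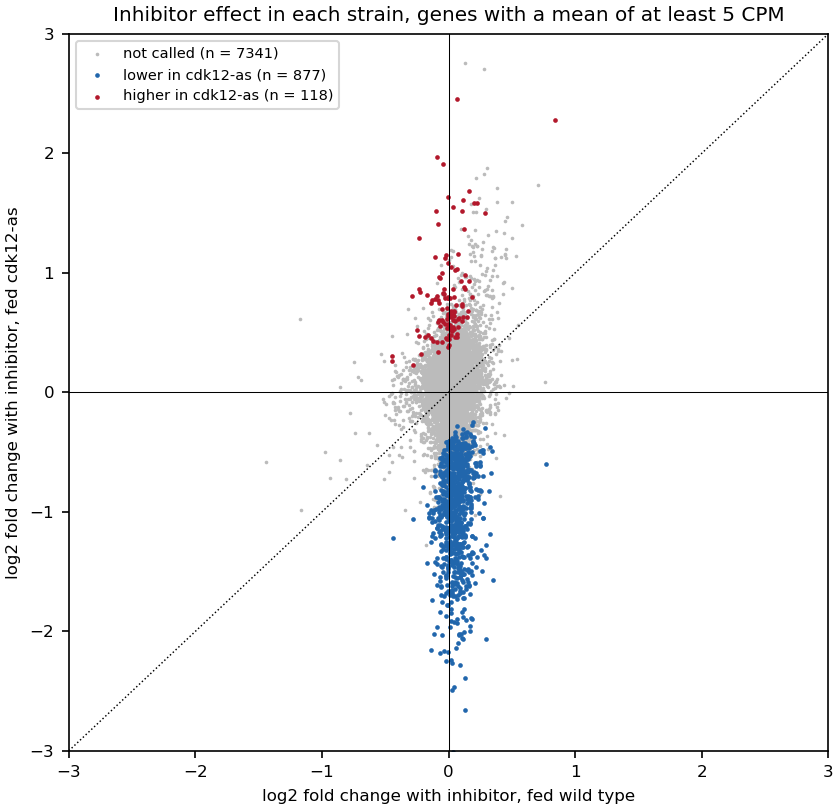
Log2 fold change with inhibitor in fed wild type (x axis) and in fed cdk12-as (y axis) for the 8336 genes that averaged 5 CPM or more over the fed libraries, with 1 gene outside the axes. Blue points are the 877 genes of this level called lower and red points the 118 called higher in the interaction; most spread along the y axis and lie near 0 on the x axis, and on the dotted line both effects would be equal.

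The transcripts of the kinase and of its substrate did not pass the test. The cdk-12 message was at 42.2 and 53.2 CPM in wild type with food, 40.5 and 52.7 CPM with inhibitor, 41.9 and 45.3 CPM in cdk12-as with food and 31.6 and 35.9 CPM with inhibitor. Both inhibitor libraries of cdk12-as lay below the other 6, and the interaction was -0.34 ± 0.22 (log2 ± SE, adjusted p = 0.564). As the strain carries an altered protein, this level does not check its labels. The cyclin K gene ccnk-1 had 0.11 ± 0.14 (adjusted p = 0.856) and cdk-9, the kinase of the elongation factor P-TEFb, -0.27 ± 0.18 (adjusted p = 0.58). The largest subunit of RNA polymerase II, ama-1, was at 569 and 697 CPM in cdk12-as with inhibitor and between 437 and 559 CPM in the other 6 libraries, which do not overlap. Its interaction of 0.47 ± 0.22 had an adjusted p of 0.341, and 0.0327 with the replicate block or 0.0261 with the block within strain.

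Among genes lower in cdk12-as, the 12 with the smallest values, a mean of at least 5 CPM and a symbol of letters, a hyphen and a number are described first. Genes named by a clone, such as C14A4.3 and Y37B11A.2 below, were outside that rule. The message of dars-2 (chromosome V, 12048727 to 12052052 of ce10) was at 18.4 and 17.2 CPM in wild type with food, 20.1 and 18.8 CPM with inhibitor, 10.9 and 11.9 CPM in cdk12-as with food, and 2.16 CPM in both libraries with inhibitor. The wild-type levels overlapped neither cdk12-as group, cdk12-as with food was lower, and cdk12-as with inhibitor was lowest. The interaction was -2.52 ± 0.19 (adjusted p = 1.24e-05). The same order of groups held for gro-1 (III, 5265097 to 5267091), which encodes a tRNA-modifying isopentenyltransferase, with 15.6 and 13.9, 19.5 and 16.6, 10.0 and 9.1, and 2.47 and 2.13 CPM in the same 4 groups (-2.36 ± 0.24, adjusted p = 6.02e-05). The E2F-like transcription factor gene efl-2 (II, 13406090 to 13411210) differed in that its fed levels were close in the strains. It had 22.8 and 20.9 CPM in wild type, 24.5 and 20.1 CPM with inhibitor, 20.4 and 17 CPM in cdk12-as, and 3.90 and 3.88 CPM with inhibitor (-2.29 ± 0.20, adjusted p = 2.88e-05). The others were fre-1 (-2.18), the aldehyde dehydrogenase gene alh-7 (-2.17), the parvulin-type prolyl isomerase gene pinn-4 (-2.17), the ONECUT homeobox gene ceh-41 (-2.12), the sorting nexin gene snx-14 (-2.11), the histidine triad gene hint-1 (-2.11), phf-30 (-2.04), the mitochondrial ribosomal protein gene mrpl-21 (-1.95) and the exosome-associated nuclease gene crn-3 (-1.94). All 12 stayed called in every alternative fit run.

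**Figure D2:**
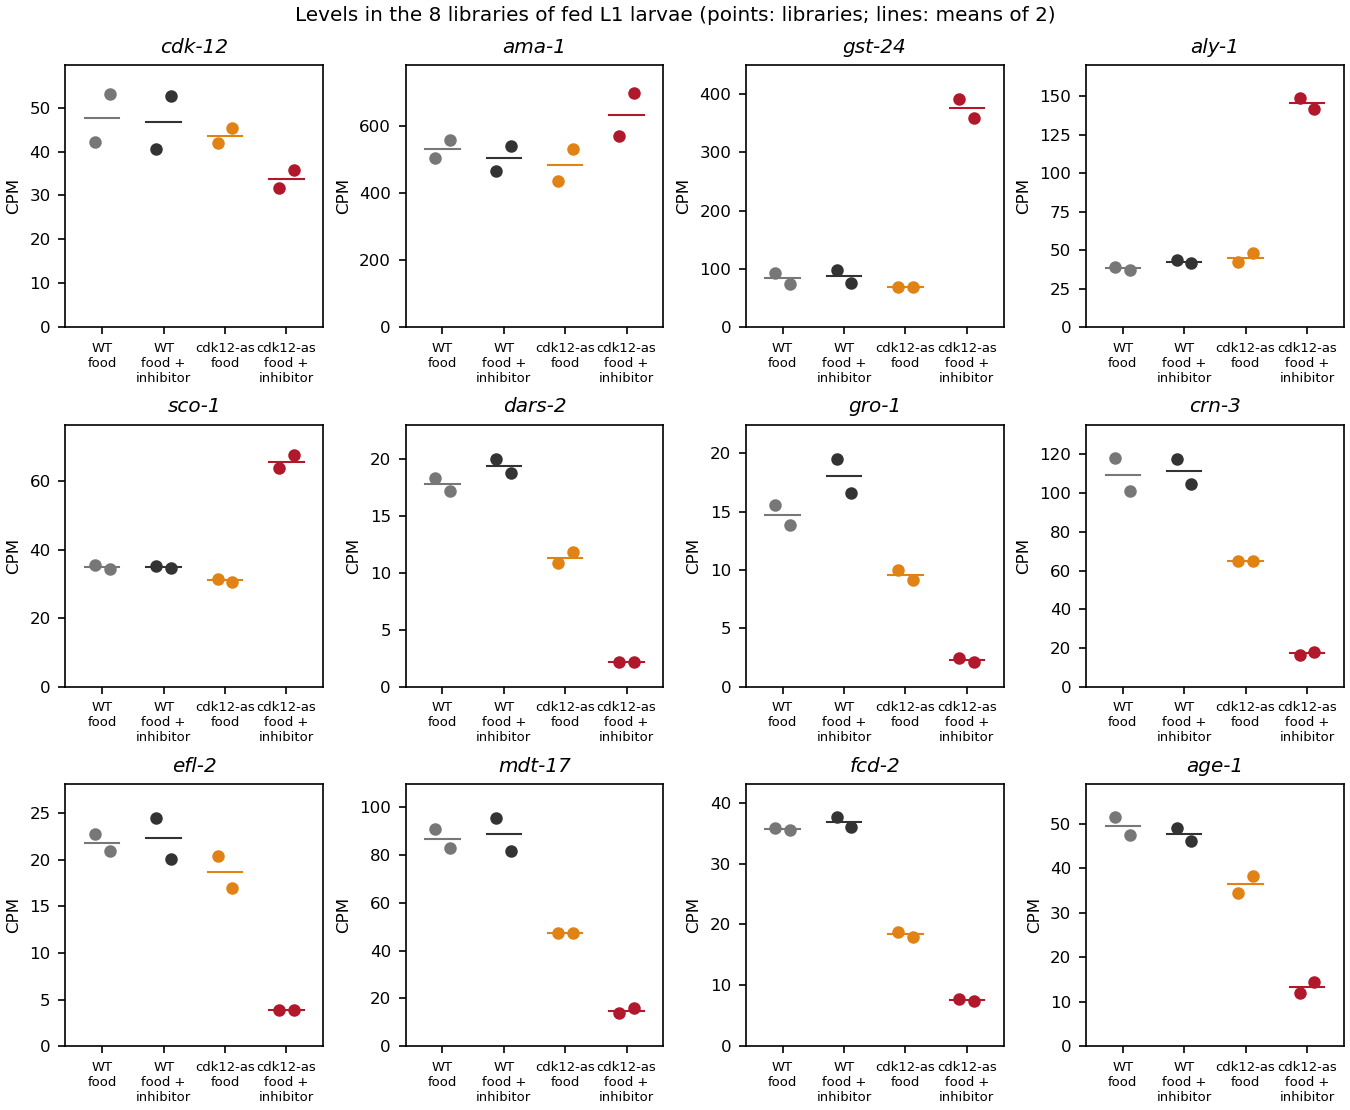
CPM of 12 genes in the 8 fed libraries, 2 points per group with their mean as a line, from 0 on each y axis. In cdk12-as with inhibitor both points of gst-24, aly-1 and sco-1 lie above all others and both points of dars-2, gro-1, crn-3, efl-2, mdt-17, fcd-2 and age-1 lie below all others, while cdk-12 and ama-1 differ less.

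Among genes higher in cdk12-as, the 12 with the largest values under the same rule are described next. The gst-24 message (II, 13610410 to 13611224) was at 93.3 and 73.9 CPM in wild type with food, 98.8 and 75.9 CPM with inhibitor, 68.3 and 68.6 CPM in cdk12-as with food and 392 and 358 CPM with inhibitor (2.39 ± 0.20, adjusted p = 2.4e-05). The mRNA export adaptor gene aly-1 (IV, 9108931 to 9109651) stood at 37.2 to 48.1 CPM in 6 libraries and at 149 and 142 CPM in cdk12-as with inhibitor (1.52 ± 0.14, adjusted p = 3.78e-05). Neither gene's level in cdk12-as with inhibitor overlapped any other fed group. The gene sco-1, a copper chaperone in the assembly of cytochrome c oxidase, was at 30.7 to 35.6 CPM in 6 libraries and at 63.7 and 67.6 CPM in cdk12-as with inhibitor (1.08 ± 0.11). The UDP-glucuronosyltransferase gene ugt-39 took another course. It was at 18.5 and 14.7 CPM in wild type with food and 8.12 and 6.05 CPM in cdk12-as with food, and with inhibitor at 23.2 and 20.5 CPM in cdk12-as and at 18.8 and 14.4 CPM in wild type (1.64 ± 0.25). The rest of the 12 were gadr-6 (1.49), the cation-transporting ATPase gene catp-3 (1.49), egg-6 (1.24), cdr-2 of the cadmium-responsive family (1.17), the noncoding linc-125 (1.09), the F-box gene fbxc-52 (1.09), ugt-31 (1.06) and ugt-41 (1.05). Leaving out 1 library ended the calls of egg-6, linc-125 and ugt-41, with adjusted p up to 0.0819, 0.106 and 0.0972, and total count scaling ended those of all 12 but gst-24, ugt-39 and catp-3.

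The share of genes called lower was higher at the downstream places of runs of closely spaced genes than elsewhere, although the largest number of lower genes lay in no run. A run here is a series of genes on the same strand with gaps of 0 to 500 bases by the exon positions of ce10, a stand-in for operons that uses no trans-splicing data. Of genes in no run, 3.68% were lower (424 of 11522), and of first genes of a run 3.3% (60 of 1818). The share was 14.8% (275 of 1861) at place 2 and 33.4% (195 of 584) at place 3 or later. The shares called higher were 0.903, 1.32, 0.752 and 0.514% in the same order. Median log2 values of the interaction were 0.05, 0.10, -0.12 and -0.39, and those of the inhibitor effect in wild type were 0.02, 0.04, 0.05 and 0.05. Under total count scaling the interaction medians were -0.105, -0.06, -0.27 and -0.54, so that the first pair of values changed sign. Median CPM, which bear on how readily a gene is called and are not levels per length, were 5.38, 8.68, 7.87 and 9.59. Among genes with at least 5 CPM the lower shares were 6.54, 5.31, 24.1 and 49.3%. With total counts without rrn-2.1 they were 4.43, 3.91, 16.8 and 35.8% of all tested genes of each place. Without the wild-type library that stood apart they were 3.13, 2.97, 13.2 and 29.1% of all tested genes of each place, and under total count scaling 0.781, 0.55, 2.96 and 13.7%.

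Long genes were also lower more often, and the place in a run was seen at each length. With the tested genes put in 4 classes of about equal size by span, from the first to the last exon base, 2.51% of genes of 20 to 944 bases were lower, 4.16% of genes of 945 to 1840 bases, 6.26% of genes of 1841 to 3401 bases and 11.3% of genes of 3402 to 96474 bases. Among genes in no run the shares were 1.29, 1.73, 2.81 and 8.23% from the shortest to the longest class. Among second or later genes of a run they were 9.4, 15.3, 23 and 33.3%. First genes of a run had 0.924, 1.73, 3.01 and 10.2%, close to genes in no run. These shares are descriptions without a test, because neighbouring genes are not independent and the same libraries enter each share. The median interaction over all places was 0.18, 0.07, 0.02 and -0.06 from the shortest to the longest class. Level and gene type, which bear on how readily a gene is called, were not matched between the classes of span. Of 1191 genes annotated as ncRNA 0.336% were lower, against 6.73% of 13743 protein-coding genes.

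**Figure D3:**
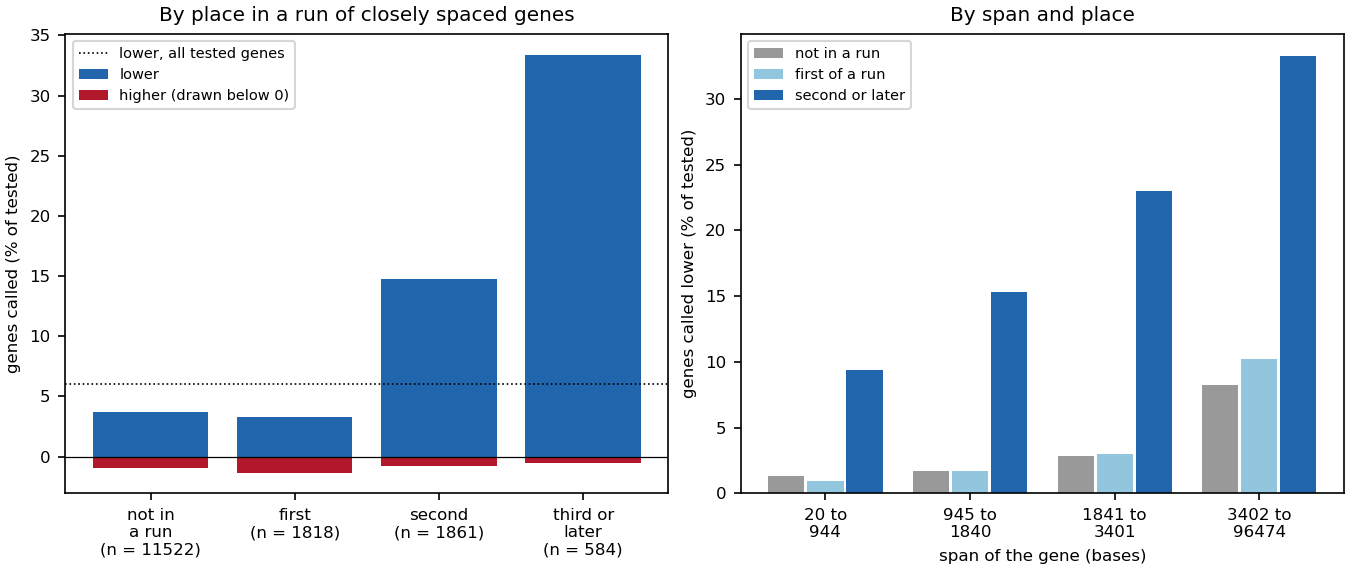
Percent of tested genes called in the interaction, by place in a run of closely spaced genes (left, lower genes above 0 and higher genes below 0, dotted line at the 6.02% of all genes called lower) and by class of gene span and place (right, lower genes only). The lower share is largest at place 3 or later, at 33.4%, and at place 2 or later it is above that of the other places in each class of span.

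Within pairs of neighbours the downstream gene lost more. In 2079 pairs with both genes tested, the median difference of the interaction, downstream minus upstream gene, was -0.34 on the log2 scale, and it was below 0 in 1430 pairs. It was -0.34 within replicate number 1 and -0.37 within replicate number 2. The inhibitor effect alone gave a median difference of -0.30 in cdk12-as and 0.01 in wild type. The downstream gene was lower in 466 pairs (22.4%) and the upstream gene in 176 (8.47%). In 359 pairs the downstream gene alone was lower and in 69 the upstream gene alone. Taken library by library, the median log2 ratio of downstream to upstream level, relative to the mean of wild type with food, was -0.39 and -0.43 in the 2 libraries of cdk12-as with inhibitor. It was -0.09 and -0.10 in cdk12-as with food, between -0.08 and -0.04 in the 4 libraries of unfed cdk12-as, and between -0.05 and 0.03 in the 8 wild-type libraries. The 2 libraries of cdk12-as with inhibitor thus stood apart from all 14 others, and 5 of the 6 other cdk12-as libraries lay below the wild-type range. By width of the gap the downstream gene was lower in 4.0% of 75 pairs at up to 100 bases, in 24.7 and 28.4% at 101 to 200 and 201 to 300 bases, in 20.2 and 18.1% at 301 to 400 and 401 to 500 bases, and in 8.67 to 13.3% at the wider gaps up to 1000 bases.

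Along single runs the values were lower from one gene to the next over most steps. These 5 runs were taken because they hold, at place 3 or later, one of the 12 genes with the smallest values, and so were chosen after the values were seen. In the run that ends with gro-1, the first gene gop-1 had 0.11 ± 0.15 (adjusted p = 0.871), gop-2 -0.76 ± 0.15, gop-3 -1.31 ± 0.13, hap-1 -1.74 ± 0.19 and gro-1 -2.36 ± 0.24. Each gene after the first was called, and each lay below the gene before it. The run on chromosome II that begins with rpb-6, a subunit shared by the nuclear RNA polymerases, held calls in both directions. There rpb-6 was higher (0.47 ± 0.09, adjusted p = 0.00692), the deoxyhypusine hydroxylase gene dohh-1 had 0.39 ± 0.15 (adjusted p = 0.177), the mitochondrial ribosomal genes dap-3 and mrps-22 were at -0.98 and -1.57, C14A4.3 at -2.1, and the exosome genes crn-3 and crn-5 at -1.94 and -1.83. The call of rpb-6 ended under both total count scalings, without the filter on low counts and in a fit of the 8 fed libraries alone. Its lowest value was thus that of C14A4.3, at place 5 of 7. In the run of dars-2 the values were -0.04, -1.23 and -2.52 (F10C2.4, F10C2.5 and dars-2), and in that of alh-7 they were 0.07, -0.73 and -2.17 (F45H10.3, F45H10.2 and alh-7). In the run of hint-1 the first gene, F21C3.6, was not tested. The prefoldin gene pfd-6, at place 2, was uncalled at 0.02, and the mutator gene rde-2 had -1.37 and hint-1 -2.11. The genes next to hint-1, F21C3.7 and tyr-3, were under 1 CPM and uncalled.

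**Figure D4:**
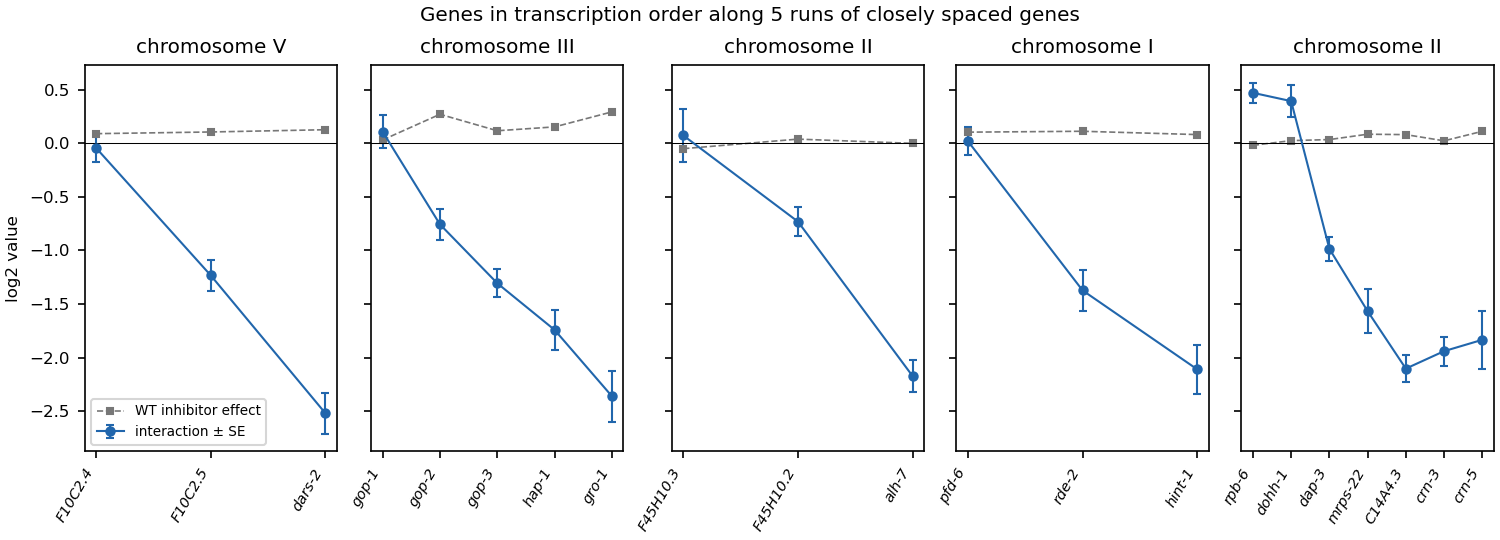
Log2 interaction with its SE (blue) and log2 inhibitor effect in wild type (grey squares) for genes with at least 5 CPM in transcription order, from upstream on the left, along 5 runs of closely spaced genes. The first gene plotted lies between -0.04 and 0.47 in each run and the last gene between -2.52 and -1.83, while the wild-type values stay between -0.05 and 0.29. In the run of hint-1 the first gene plotted, pfd-6, is at place 2.

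The 8 pairs with the largest difference of values, both genes at 5 CPM or more and the downstream gene alone called lower, are given next. The tail-to-head neighbours prmt-1, an arginine methyltransferase gene, and mdt-17, a Mediator subunit gene, lie 371 bases apart on chromosome V. The prmt-1 message was at 431 and 478 CPM in wild type with food, 421 and 480 CPM with inhibitor, 321 and 391 CPM in cdk12-as with food and 330 and 405 CPM with inhibitor (0.06 ± 0.24). The mdt-17 message fell in cdk12-as from 47.5 CPM in both food libraries to 14 and 15.8 CPM with inhibitor, and was at 81.6 to 95.5 CPM in wild type (-1.70 ± 0.13, adjusted p = 1.24e-05). The levels of prmt-1 overlapped between the cdk12-as groups and those of mdt-17 did not, in a pair chosen for such a difference. In the pair apm-3 and chil-10, an adaptor subunit gene and a chitinase-like gene 310 bases apart, the values were 0.08 ± 0.12 and -1.76 ± 0.13. In the pair icp-1 and tpxl-1, genes for the INCENP and TPX2 homologs that bind Aurora kinases, they were 0.61 ± 0.26 (adjusted p = 0.267, and 0.0316 with the replicate block) and -1.54 ± 0.31 (adjusted p = 0.00722). In dcs-1 and fre-1 they were -0.35 and -2.18, and in the ribosomal protein gene rps-28 and Y41D4B.4 they were 0.21 and -1.70. In T07A9.9 and T07A9.8, the nucleolar genes nog-1 and rrp-8 of RefSeq, they were 0.68 ± 0.23 (adjusted p = 0.115, and 0.00115 with the replicate block) and -1.13 ± 0.13. In Y48A6B.3 and the exosome gene exos-1 they were 0.36 and -1.36, and in sqv-1, a sugar nucleotide decarboxylase gene, and D2096.12 they were 0.04 and -1.66. The uncalled upstream values of rps-28, apm-3, prmt-1 and sqv-1 changed sign in other fits.

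The 50 lists below were drawn up with earlier results of these data known, and called members beyond the 3 per list with the smallest adjusted p were named after their values were seen. Each count below is to be read against the 6.02% of all tested genes called lower and the 0.915% called higher. Levels were not matched, and of the 8336 genes at 5 CPM or more 877 were lower and 118 higher. In the fit with a filter of at least 5 CPM, 10.8% of 8124 protein-coding genes were lower. The lower shares were then 12.2% of replication and mitosis, 12.5% of CTD kinase and elongation, 8.7% of spliceosome and 8.7% of translation factor genes. Each positive list median of up to 0.135 turned negative under total count scaling. That scaling counts rrn-2.1 in the library size. With rrn-2.1 left out of the totals, 27 of 60 DNA damage genes and 14 of 49 Mediator, TFIID and general factor genes were lower. So were 11 of 89 replication and mitosis genes and 5 of 40 genes of CTD kinases, polymerase II and elongation. DNA damage response and repair genes had the largest lower share among the lists of at least 5 called genes, with 24 of 60 tested members lower and 1 higher (median -0.49, against 0.04 over all tested genes). Of the 24, 12 were second or later in a run, and 17 of the 60 members held such a place. The catalytic subunit gene of polymerase zeta, Y37B11A.2 (rev-3 of RefSeq), was at 9.19 and 10.2 CPM in wild type with food, 9.69 and 10.0 CPM with inhibitor, 5.11 and 4.84 CPM in cdk12-as with food and 0.736 and 0.979 CPM with inhibitor (-2.51 ± 0.23, adjusted p = 3.05e-05). The FANCD2 homolog fcd-2, which acts in crosslink repair, was at 35.5 to 37.6 CPM in wild type, at 18.8 and 17.9 CPM in cdk12-as with food and at 7.75 and 7.45 CPM with inhibitor (-1.32 ± 0.12, adjusted p = 2.88e-05). The Werner helicase gene wrn-1 had -1.46 ± 0.14 (adjusted p = 5.21e-05). In each of these genes both libraries of cdk12-as with inhibitor lay below every other fed library. Lower members came from several repair routes. They included the helicase genes rtel-1 (-1.86) and dna-2 (-0.57), the nuclease genes slx-1 (-1.58), mus-81 (-1.18), xpf-1 (-1.26) and xpg-1 (-1.09), the glycosylase gene nth-1 (-1.40), the mismatch gene msh-6 (-1.27) and the polymerase gene polq-1 (-1.0). The higher member was rad-50 (0.80), of the Mre11 complex. Without the wild-type library that stood apart 19 members were lower, and under total count scaling 7. Replication and mitosis genes had 10 of 89 lower (11.2%) and 0 higher (median -0.06). The lower count was 6 without either library of wild type with food, 5 without replicate 1 of cdk12-as with food or with inhibitor, and 1 under total count scaling. Lower members included the GINS subunit gene sld-5 (-1.54) and the clamp loader gene rfc-3 (-0.97).

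Transcription and RNA processing lists held calls in both directions, as did all tested genes, except the cleavage, polyadenylation and trans-splicing list. Of 49 Mediator, TFIID and general factor genes 11 were lower (22.4%) and 1 higher (median -0.33). The lower count was 6 without replicate 2 of wild type or of cdk12-as with food, 7 without replicate 1 of wild type with inhibitor and 1 under total count scaling. After mdt-17 these included the TFIIH gene R02D3.3 (gtf-2H1 of RefSeq, -0.91) and mdt-30 (-0.88), and the TFIIB gene ttb-1 was higher (0.60). Of 40 genes of CTD kinases, polymerase II and elongation 5 were lower (12.5%) and 2 higher (median 0.05). With a filter of at least 5 CPM 7 were higher, and with either replicate block 6, beside 5 lower each time. The lower count was 4 without replicate 2 of wild type with inhibitor, 1 without replicate 2 of wild type with food, 3 without each of the other fed libraries and 0 under total count scaling. The elongation factor gene spt-4 went from 12.3 and 12.7 CPM in cdk12-as with food to 3.59 and 5.10 CPM with inhibitor and was at 18.1 to 21.1 CPM in wild type (-1.50 ± 0.22, adjusted p = 0.000705), and the PAF1 complex gene leo-1 had -0.81. Of 22 cleavage, polyadenylation and trans-splicing genes 4 were lower (18.2%) and 0 higher (median 0.07), and 2 were lower without replicate 1 of wild type with inhibitor or either library with food. They were the termination exonuclease gene xrn-2 (-1.02), cpsf-3 (-0.63), cpsf-1 (-0.56) and tut-1 (-0.83). The last is a tRNA thiolation gene, which the list counts although it belongs to none of these steps. Exosome and mRNA export genes had 7 lower (25%) and 2 higher among 28, with a median of 0.21, and 6 of the 7 were second or later in a run. The lower count was 4 without replicate 2 of wild type with food or replicate 1 with inhibitor. The exosome genes crn-3, crn-5, exos-1 and exos-4.2 (-1.35) and the THO genes thoc-2 (-0.64) and thoc-3 (-0.58) were among the lower members, and the export genes aly-1 and nxt-1 (0.97) were the higher ones. Spliceosome genes had 6 lower (8.7%, close to the share of all genes) and 5 higher among 69, with a median of 0.15. Among the 6, R05D11.4 (ddx-52 of RefSeq, -1.13) is counted again in the ribosome biogenesis list below. The higher count ranged from 1 to 7 with 1 library left out, and was 1 without replicate 2 of wild type with food or replicate 1 of cdk12-as with inhibitor. With a filter of at least 5 CPM 15 were higher and 6 lower. With the replicate block over both strains or within strain 11 or 13 were higher and 8 lower. The lower ones included the SF3B subunit gene sap-49 (-1.77) and Y67D2.6 (ddx-35 of RefSeq, -1.60), and the Sm genes snr-1 (0.52), snr-4 (0.54) and snr-7 (0.61) were higher. The calls of leo-1, cpsf-1 and cpsf-3 were each lost without at least 1 library, with adjusted p up to 0.0653, 0.0616 and 0.0853.

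Mitochondrial and translation genes were counted by compartment, and the compartments were not tested against each other. Mitochondrial ribosomal protein genes had 15 of 67 lower (22.4%) and 0 higher (median -0.20), 10 of the 15 second or later in a run, among 24 members with such a place. The mrps-30 message was at 101 to 115 CPM in wild type, 49.7 and 53.4 CPM in cdk12-as with food and 15.2 and 16.5 CPM with inhibitor (-1.71 ± 0.13, adjusted p = 1.11e-05), with no overlap between these 3 levels. Cytosolic ribosomal protein genes had 0 of 78 lower and 1 higher (median 0.23), rpl-11.1 at 0.66, whose call was lost without any of 5 libraries. Aminoacyl-tRNA synthetase genes, a list that pools the cytosolic and mitochondrial enzymes, had 7 of 33 lower (21.2%, median -0.04). Among them were dars-2 and the mitochondrial iars-2 (-1.25 ± 0.13) and lars-2 (-1.23 ± 0.17). The other lower members were the cytosolic Y105E8A.19 (yars-1 of RefSeq, -0.78), rars-1 (-0.56), wars-1 (-0.45) and qars-1 (-0.42). Ribosome biogenesis and RNA polymerase I genes had 8 of 42 lower (19%) and 3 higher, with a median of 0.18, and the higher count ranged from 1 to 4 with 1 library left out. With a filter of at least 5 CPM 9 of 41 were higher and 8 lower. With the replicate block over both strains or within strain 10 or 12 were higher and 8 lower. The lower ones included C16C10.2 (utp-11 of RefSeq, -1.56) and nol-9 (-1.43). Of 47 translation factor genes 4 were lower (8.51%, close to the share of all genes) and 2 higher (median 0.11), with Y37E3.10 (eif-2alpha of RefSeq) at -0.84 and E04D5.1 (eif-2A of RefSeq) at 0.78. Respiratory chain genes had 7 of 45 lower (15.6%) at a median of 0.135, or -0.06 without the wild-type library that stood apart. The complex assembly genes F45H11.5 (cox-19 of RefSeq, -1.63) and cox-11 (-1.51) had the lowest values. The complex I subunit genes nuo-5 (-1.11) and nuo-4 (-0.94) followed, with the assembly gene cox-15 (-1.04) between them. Ubiquinone synthesis genes had 4 of 10 lower (median -0.43), all 4 second or later in a run. These were the hydroxylase genes clk-1 (-1.40 ± 0.18) and coq-6 (-1.14 ± 0.11), the prenyltransferase gene coq-2 (-0.81) and gro-1. The list counts gro-1 although its enzyme modifies tRNA and is not one of ubiquinone synthesis. Chaperone genes had 9 of 61 lower (14.8%) and 1 higher (median 0.08), led by R151.7 (hsp-75 of RefSeq), at place 5 of its run, with -1.57. Of 33 proteasome genes 1 was lower, pbs-5 (-0.69), and its call was lost without either of 2 libraries.

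The nutrient signalling, autophagy and endosomal lists had medians near 0 beside their called members. Of 30 genes of insulin, TORC1 and AMPK signalling 6 were lower (20.0%) and 1 higher (median 0.02, and -0.11 without the wild-type library that stood apart), and 5 of the 6 were second or later in a run. The phosphatidylinositol 3-kinase gene age-1 lies downstream of mdt-8, which was itself called lower (-0.79). The age-1 message was at 46.2 to 51.6 CPM in wild type, 34.5 and 38.3 CPM in cdk12-as with food and 12.0 and 14.5 CPM with inhibitor (-1.40 ± 0.14, adjusted p = 5.13e-05). The TOR kinase gene let-363 was at 240 to 265 CPM in wild type, 223 and 231 CPM in cdk12-as with food and 120 and 128 CPM with inhibitor (-0.80 ± 0.12, adjusted p = 0.000733). Both age-1 and let-363 were lowest in the 2 libraries of cdk12-as with inhibitor, with no overlap. The GATOR1 gene nprl-3 (-1.64), ddl-2 (-1.41), the Rag GTPase gene raga-1 (-0.66) and the adaptor gene aap-1 (-0.55) were also lower, and the AMPK gamma subunit gene aakg-1 was higher (0.64). Endosomal trafficking genes had 11 of 56 lower (19.6%) and 0 higher (median -0.02), with vps-53 (-1.53 ± 0.14), vps-11 (-1.47 ± 0.11) and C42C1.4 (vps-8 of RefSeq, -1.46 ± 0.12) after snx-14. Autophagy genes had 4 of 27 lower (14.8%) and 1 higher (median 0.01, which turned negative without the wild-type library that stood apart), with the protease gene atg-4.2 at -1.48 and the lipid kinase gene vps-34 at -1.04. Small RNA pathway genes had 8 of 56 lower (14.3%, median -0.05) and 0 higher, and 4 lower without replicate 2 of wild type with food, with eri-1 at -1.47, rde-2 at -1.37, nrde-1 at -1.12 and the Dicer gene dcr-1 at -0.74. Cilium genes had 4 of 49 lower (8.16%, close to the share of all genes, median -0.27), led by the dynein gene che-3 (-1.35).

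In the UDP-glucuronosyltransferase and cytochrome P450 lists more members were higher than lower, against 0.915% higher and 6.02% lower among all genes. UDP-glucuronosyltransferase genes had 6 of 63 higher and 2 lower (median 0.32), with ugt-48 at 0.83 ± 0.13 and ugt-62 at 0.86 ± 0.14 after ugt-39, and ugt-65 (-1.15) and ugt-46 (-1.13) lower. Cytochrome P450 genes had 4 of 68 higher and 0 lower, led by cyp-33C8, which was at 17.2 to 20.3 CPM in wild type, 38.5 and 42.1 CPM in cdk12-as with food and 69.9 and 76.8 CPM with inhibitor (0.90 ± 0.13, adjusted p = 0.000881). That gene was higher in cdk12-as already without the compound. With 1 library left out, 4 to 6 and 1 to 5 members of these families were higher. The P450 count was 1 without the wild-type library that stood apart, replicate 2 of wild type with food or replicate 1 of cdk12-as with food, and 2 without either library of cdk12-as with inhibitor. Under total count scaling 1 and 0 were higher. Of 46 glutathione S-transferase genes gst-24 alone was called. ABC transporter genes had 3 of 39 lower, with the heavy metal tolerance gene hmt-1 at -1.13, and 1 higher, pgp-1 (0.83), and 1 lower without replicate 2 of cdk12-as with food. Dehydrogenase and flavin monooxygenase genes had 3 higher and 2 lower among 37, 1 of each without replicate 1 or 2 of cdk12-as with food, and 0 higher and 1 lower in a fit of the 8 fed libraries. One of the higher ones, stdh-2, had its change in wild type, from 2.35 and 2.09 CPM to 1.13 and 1.19 CPM, and was at 1.82 to 2.28 CPM in the 4 cdk12-as libraries (1.09 ± 0.24, adjusted p = 0.0117, and up to 0.0634 without 1 library).

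**Figure D5:**
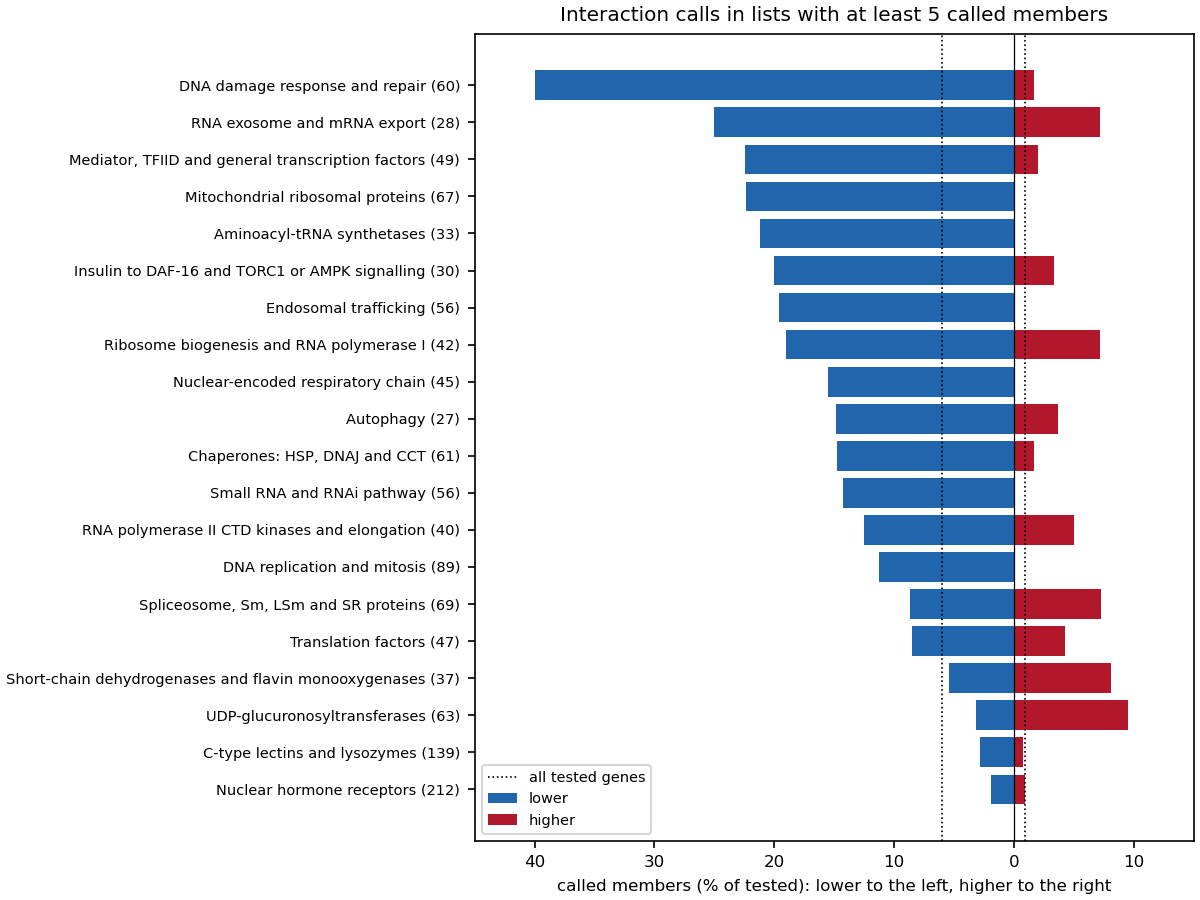
Called members of the 20 lists with at least 5 calls, as percent of tested members (number in parentheses), lower to the left and higher to the right of 0, with dotted lines at the 6.02% lower and 0.915% higher of all tested genes. The DNA damage list has the longest bar to the left, with 24 of 60, and the UDP-glucuronosyltransferase list the longest to the right, with 6 of 63.

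Larval structure and neuronal lists had few or no calls. Cuticle collagens (114 tested), insulin-like peptides (30), neuropeptides (85), ligand-gated channels (78), hedgehog-related genes (40), core histones (33), muscle sarcomere genes (30) and P granule genes (29) had 0 called either way, as did 5 more of the 50 lists. Many of these genes had low levels: 33 collagens and 7 insulin-like peptides passed the filter of at least 5 CPM. Medians of all tested members were 0.336 and 0.275, or 0.167 and 0.0669 under total count scaling. An uncalled gene is thus not shown to be unchanged. Of 95 moulting genes blmp-1 was lower (-0.58) and ptr-13 higher (0.72), and both calls were lost without 1 library. Among 212 nuclear hormone receptor genes 4 were lower and 2 higher, with nhr-96 at -1.17 (adjusted p = 0.0596 without 1 library) and nhr-58 at 0.90, and among 139 C-type lectin and lysozyme genes 4 were lower and 1 higher. With 1 library left out the lower counts ranged from 1 to 2 and from 1 to 3. These lower shares were below that of all genes, but levels, which bear on how readily a gene is called, were not matched. Small nuclear and nucleolar RNAs had medians of 0.67 (44 tested, 0 called) and 0.56 (244 tested, 1 lower), whose direction turned with single libraries. They were 1.87 and 1.45 without the wild-type library that stood apart, 0.06 and -0.13 without replicate 1 of wild type with food, and -0.80 and -0.54 without replicate 1 of cdk12-as with inhibitor. In all, 29 lists had more lower than higher members and 7 had more higher ones. The lower share by chromosome was 8.34% on I, 5.96% on II, 8.8% on III, 6.79% on IV, 2.94% on V and 2.34% on the analysed stretch of X.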

How the data were processed

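RNA was sequenced from pooled whole L1 larvae as ribodepleted stranded total RNA in paired-end mode, per the labels' protocols. The authors deposited raw read counts per gene for 16 libraries. The submitters' processing notes name Trimmomatic, HISAT2, featureCounts, DESeq2, deepTools 3.2 and build ce10, without roles. Which counter and strand setting made the count table was not given in the sources used here, so overlapping genes stay uncertain. Exon positions came from a second deposited table (featureCounts 1.5.0-p2, per the file headers), whose 32 spliced-leader columns were not used. Reads outside features were 23.7 to 54.2% and ambiguous reads 0.83 to 6.65% of the fed columns, and both were left out of library sizes.

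Of 24654 genes, 15845 passed edgeR's filterByExpr with a minimum count of 10. A quasi-likelihood fit (edgeR 4.0.16, R 4.3.3) of 8 group means to all 16 libraries, scaled by TMM, left 8 residual degrees of freedom, and p-values were adjusted over all tested genes by Benjamini-Hochberg with a threshold of 0.05. DESeq2 1.42.0 was an alternative, as were other scalings, filters, sample sets, replicate blocks and left-out libraries. In simulated counts for the interaction over 15845 genes, 88% of 100 genes changed 4-fold and 24% of 100 genes changed 2-fold were recovered. The changed genes were drawn without those of the lowest levels, and the simulated libraries were independent, unlike the fed libraries here. These shares may therefore differ from those in the data, where more genes were called. Replicates differed by far more than sampling noise (chi-square divided by its degrees of freedom, 97.0 to 421). Same-numbered fed libraries deviated together in all 6 pairs of groups (r = 0.291 to 0.536), so the numbers pair the samples by this check of the data, not by the labels.

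Runs joined genes on the same strand with gaps of 0 to 500 bases, for 24100 placed genes. Named genes were the 12 largest and 12 smallest called values that averaged 5 CPM or more and had a standard symbol and the same sign in both replicate numbers, up to 3 called members per list by adjusted p, the polymerase gene ama-1 with the kinase and cyclin genes cdk-12, cdk-9 and ccnk-1, and the 8 closely spaced pairs with the largest difference. Members and lists were chosen with earlier results of these data known. Gene symbols given as of RefSeq came from its gene table.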

Additional observations from a re-analysis of the deposited data

Results flagged for a closer look

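The inhibitor effect differed between the strains, by the edgeR test of the difference itself, for 145 genes higher and 954 genes lower in cdk12-as than in wild type. Of the 128 genes named by rule, 116 were called in this test, and 86 of these kept their call whichever of the 8 fed libraries was left out. The part of the wild-type library with low muscle and pharynx markers in these differences was not tested beyond the values given without it.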

How the results depend on the processing

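Genes higher in the interaction numbered 7 with total count scaling, 84 with total counts without rrn-2.1, 79 without a filter, 274 with at least 5 CPM, 58 in a fit of the 8 fed libraries, 303 with the replicate block and 337 with the replicate block within strain, and 73 to 188 with 1 library left out. Lower genes numbered 235 with total count scaling, and 699 to 935 with 1 library left out. In cdk12-as alone, genes higher with inhibitor numbered 44 with total count scaling, 301 without rrn-2.1, 270 with the 8 fed libraries, 1097 and 1165 with the replicate block over both strains and within strain, and 284 to 686 with 1 library left out; lower genes numbered 783 with total count scaling. In wild type DESeq2 called 3 genes lower. The pair median was -0.54 at 5 CPM or more, -0.41 for gaps up to 200 bases, -0.25 for gaps up to 1000 bases and -0.39 to -0.33 with 1 library left out. The causes were not tested.

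Of the named genes, the replicate block added calls of ama-1, icp-1 and T07A9.9 and, within strain, ended that of C32E8.6 (adjusted p = 0.0562); it changed no other named call. Total count scaling ended 73 named calls. Uncalled values changed sign under total count scaling and without rrn-2.1 for ccnk-1 (-0.0283 and -0.000958), apm-3 (-0.0672 and -0.0301), prmt-1 (-0.0945 and -0.0506) and sqv-1 (-0.0809 and -0.0762), and without a filter for sqv-1 (-0.00754). With 1 library left out the values ranged from -0.0159 to 0.243 for ccnk-1, -0.0576 to 0.516 for rps-28, -0.0914 to 0.206 for prmt-1 and -0.0664 to 0.145 for sqv-1. With 2 libraries per group, small changes were often below detection at this depth and spread.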
